A study of Homo sapiens with 18 samples.

Results

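Cal27 is an established human oral squamous cell carcinoma line from the tongue, and the 6 libraries described here show how its transcripts answered 2-deoxyglucose (2-DG) while calcitonin gene-related peptide (CGRP) was present. They are the 3 libraries of cells in high-glucose DMEM with 5 mM 2-DG and 10 nM recombinant human CGRP, set against the 3 libraries of cells in high-glucose DMEM with 10 nM CGRP alone. They were chosen by their labels from 18 libraries in all. The other 12 libraries are 2-DG and high glucose without CGRP (3 each), which show the same change of medium without the peptide, and glucose-deprived medium with and without CGRP (3 each). All cultures ran for 24 hours in their medium, and the replicates are stated to be independent repetitions. The libraries carry the codes TG and capTG, which the series text reads as CGRP and control medium. The protocol itself names the media only as differing CM, so it is known from the series text alone which arm held CGRP, and that the agent was the recombinant peptide and not a conditioned medium.

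2-DG is a glucose analogue that hexokinase phosphorylates and glycolysis cannot process further. It also resembles mannose and enters the lipid-linked sugar chains that are attached to new proteins in the endoplasmic reticulum (ER), so that proteins fold poorly there. The unfolded protein response (UPR) then raises chaperones, folding enzymes, transport and degradation genes through the transcription factors ATF6 and XBP1, and ATF4 through the kinase PERK. CGRP is a neuropeptide of sensory nerves that signals through the receptor CALCRL with its partner RAMP1, mainly by cyclic AMP. The comparison asks what remains of the 2-DG response when CGRP is in the medium.

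The 18 libraries held 28038260 to 32661768 counts, and the 6 compared here 28038260 to 31134758. In bulk RNA fewer cells of a kind and less RNA per cell cannot be told apart. Of 8 epithelial identity markers 0 passed the edgeR test in either direction (1 at an unadjusted p under 0.05, 0 by DESeq2), with KRT5 at 2235 CPM in 2-DG with CGRP and 2259 CPM in high glucose with CGRP (CPM, counts scaled to library size with TMM factors). Of the 8 log2 fold changes 0 were above 0, and they ran from -0.27 to -0.02 with a median of -0.08. Of 4 tested fibroblast, 2 endothelial, 5 neuronal and 2 Schwann cell markers 0 passed by edgeR or by DESeq2, and 1 fibroblast and 1 neuronal marker had an unadjusted p under 0.05. As 2.39% of all tested genes passed by edgeR, lists this short can hold none. In a principal component plot of all libraries 2-DG control 2 and deprived CGRP 2 stood apart from their group mates on the second component (34.6 and 59.3). Neither is in the comparison with CGRP, but both enter the shared estimate of spread.

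Transcripts of cytotoxic lymphocytes were present in all 3 libraries of 2-DG with CGRP. GZMA, which encodes granzyme A of killer lymphocytes, had 31, 37 and 47 raw counts there, against 0, 0 and 0 counts in high glucose with CGRP. GNLY, which encodes granulysin, had 26, 28 and 40 counts in 2-DG with CGRP, against 0, 0 and 0 counts in high glucose with CGRP. PTPRC, the leukocyte marker CD45, had 15, 18 and 25 counts in 2-DG with CGRP, against 0, 0 and 1 counts in high glucose with CGRP. The groups did not overlap for any of these genes, and each had at most 1 count in every other library of the series. With a floor of 3 counts over the 3 high-glucose CGRP libraries, GZMA was at least 40.3-fold higher, GNLY at least 32.9-fold and NKG7 at least 21.7-fold. Of 40 lymphocyte and leukocyte genes listed after the data had been seen, 22 were higher in all 3 libraries of 2-DG with CGRP than in all 3 of high glucose with CGRP, while over all tested genes the groups did not overlap, in either direction, for 30.3% with CGRP and 33.9% without. Over the 23 genes with at most 1 count in each other library the sums were 181, 191 and 248 counts in 2-DG with CGRP, and 0 to 4 counts in each of the other 15 libraries. Among genes of T cells, CD3E had 4, 6 and 10 counts in 2-DG with CGRP, against 0, 2 and 0 counts in high glucose with CGRP, and TRDC had 8, 6 and 8 counts in 2-DG with CGRP, against 0, 0 and 0 counts in high glucose with CGRP. CD3G, CD4, KLRB1, KLRF1 and MS4A1, also defining genes of T, natural killer and B cells, were at 0 counts in all 3 libraries of 2-DG with CGRP. TRAC had 14, 11 and 21 counts in 2-DG with CGRP, against 18, 19 and 20 counts in high glucose with CGRP. The monocyte marker CD14 had 73, 84 and 96 counts in 2-DG with CGRP, against 94, 121 and 146 counts in high glucose with CGRP. CD8A, LCK and CD247 also overlapped between these groups. All 40 genes together took 0.0016% to 0.00208% of the counts in 2-DG with CGRP and 0.000716% to 0.000924% in high glucose with CGRP. The part of these transcripts in the results below was not tested.

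**Figure D1:**
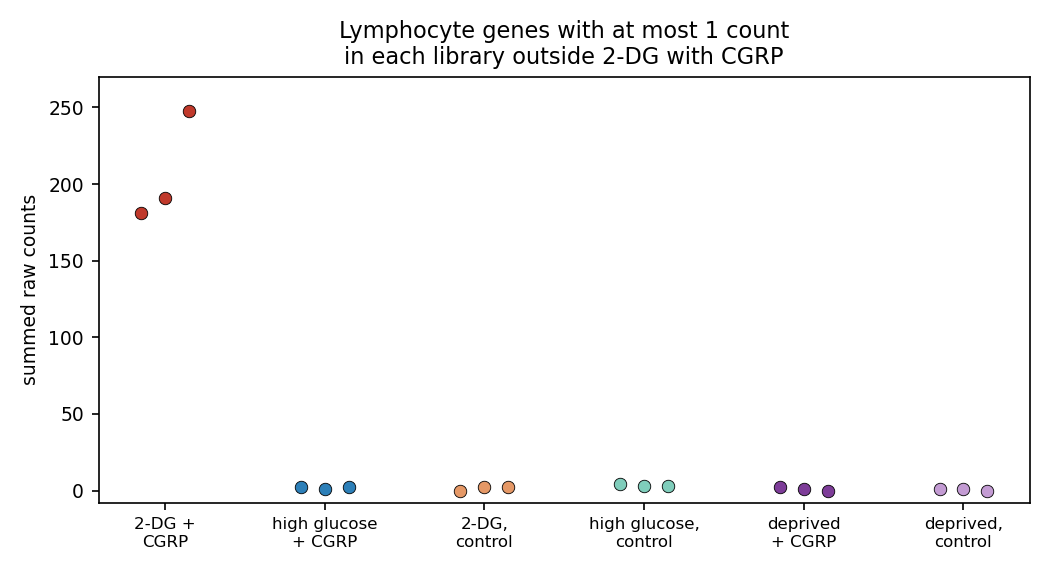
Summed raw counts (vertical axis) over the 23 lymphocyte genes that have at most 1 count in each library outside 2-DG with CGRP, with 1 point per library and 3 libraries for each of the 6 groups. The 3 libraries of 2-DG with CGRP sit at 181 to 248 counts and the other 15 at 0 to 4; the genes were selected for this pattern, so the plot describes it.

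With CGRP present, 2-DG changed few genes in the fit of all 18 libraries, and most of them by little. ER chaperones had the highest median of the 44 gene lists with at least 8 tested genes. Of 18159 genes tested, 434 (2.39%) differed at an adjusted p under 0.05 (edgeR quasi-likelihood test, Benjamini-Hochberg adjustment). Of these 276 (1.52%) were higher and 158 (0.87%) lower in 2-DG, and a 2-fold change was reached by 27 of the rises and 12 of the falls. Where the average log2 CPM was 1 or more, 6 rises and 0 falls reached 2-fold. All 10 genes that rose at least 4-fold had an average log2 CPM under 0, and they were the leukocyte-expressed genes GZMA, GZMB, GZMK, GNLY, NKG7, PTPRC, GIMAP4, CTSW, EVI2B and IL2RB. GZMA, GZMB, GZMK, GNLY, NKG7, PTPRC and GIMAP4 had at most 1 count in each library outside 2-DG with CGRP. They passed the filter on low counts through that group alone, so a gene of this kind had to differ to be tested. Without CGRP, 2-DG changed 2513 genes (13.8%), 1451 up (7.99%) and 1062 down (5.85%).

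The number of calls with CGRP depended on the libraries outside the comparison. A fit of the 6 libraries alone called 2336 genes, and a fit without 2-DG control 2 and deprived CGRP 2 called 3597, which included all 434. Without one of the libraries compared the count was 192, 179 or 178 (2-DG CGRP 1, 2 or 3) and 183, 162 or 165 (high-glucose CGRP 1, 2 or 3). Scaling by total counts gave 411 calls split into 210 up and 201 down, where the TMM scaling gave 276 and 158. Fitted to its own 6 libraries alone, 2-DG without CGRP gave 1499 calls, fewer than the 2336 with CGRP. This reversed the order of the 434 and 2513 calls from all 18 libraries. Without 2-DG control 2 and deprived CGRP 2 the counts were 3597 with CGRP and 6002 without.

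Most genes that changed with CGRP also changed without it. Of the 434 genes 336 passed in both comparisons, which share no library, and 334 of these went the same way. The 336 were 77.4% of the calls with CGRP and 13.4% of those without. Of 2511 genes with a unique symbol called without CGRP, 2424 had a smaller absolute change with CGRP, and of the 434 called with CGRP 275 did, where choosing genes by one comparison favours larger values there. Over all tested genes 63.5% had the smaller absolute change with CGRP, and the median absolute log2 fold change was 0.11 with CGRP and 0.17 without.

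**Figure D2:**
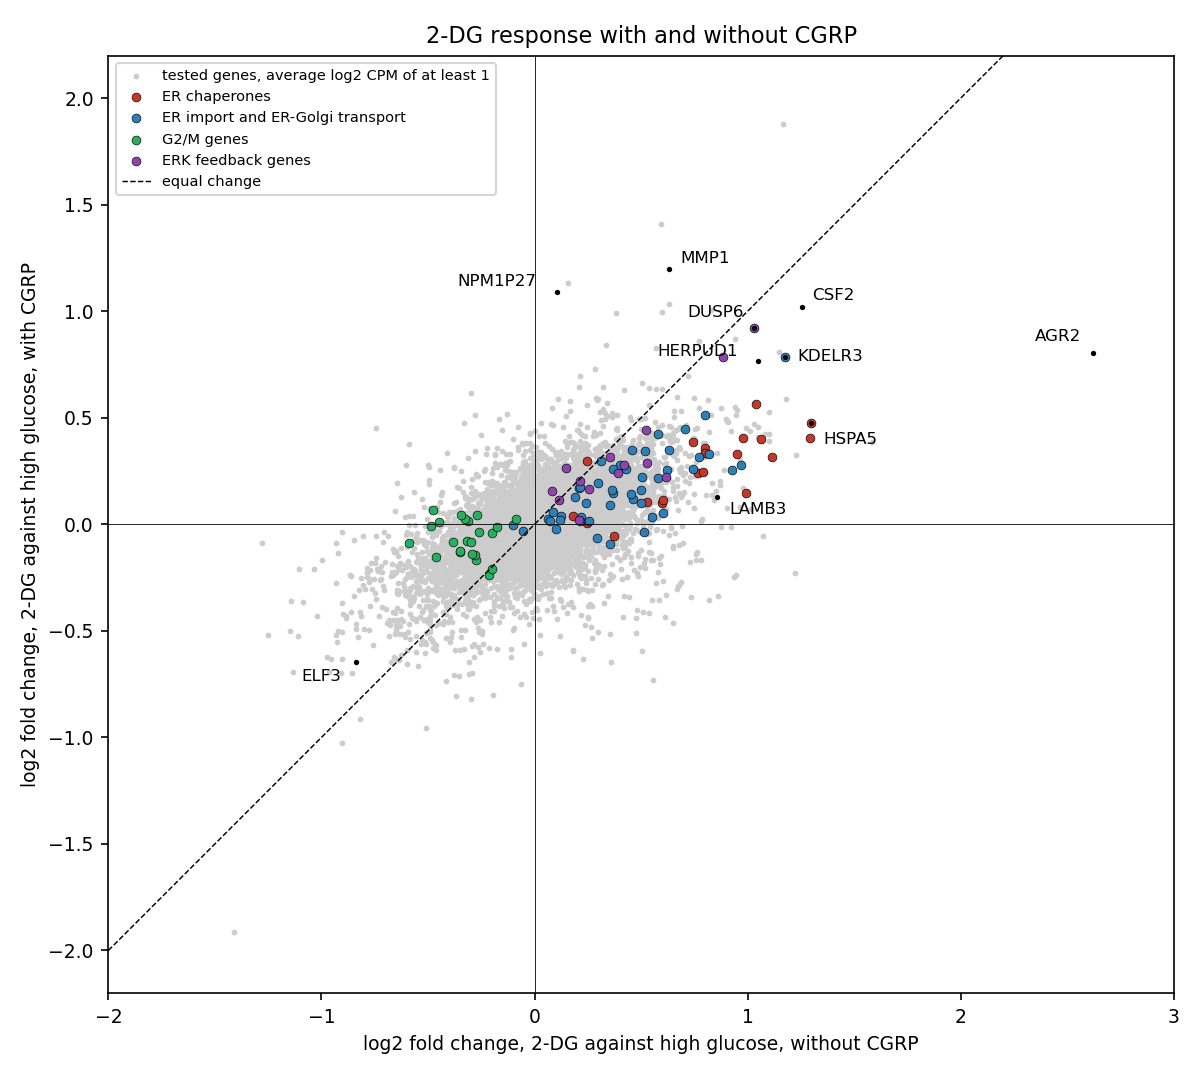
Log2 fold change of 2-DG against high glucose with CGRP (vertical axis) and without CGRP (horizontal axis) for 12876 tested genes whose average log2 CPM was 1 or more (grey), with members of 4 gene lists coloured, 10 genes named and the dashed line at equal change. Most ER chaperones and ER transport genes lie below the line (HSPA5 at 0.47 with CGRP and 1.30 without), DUSP6 lies near it (0.92 and 1.03), and the G2/M genes have medians of -0.07 with CGRP and -0.31 without.

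**Figure D3:**
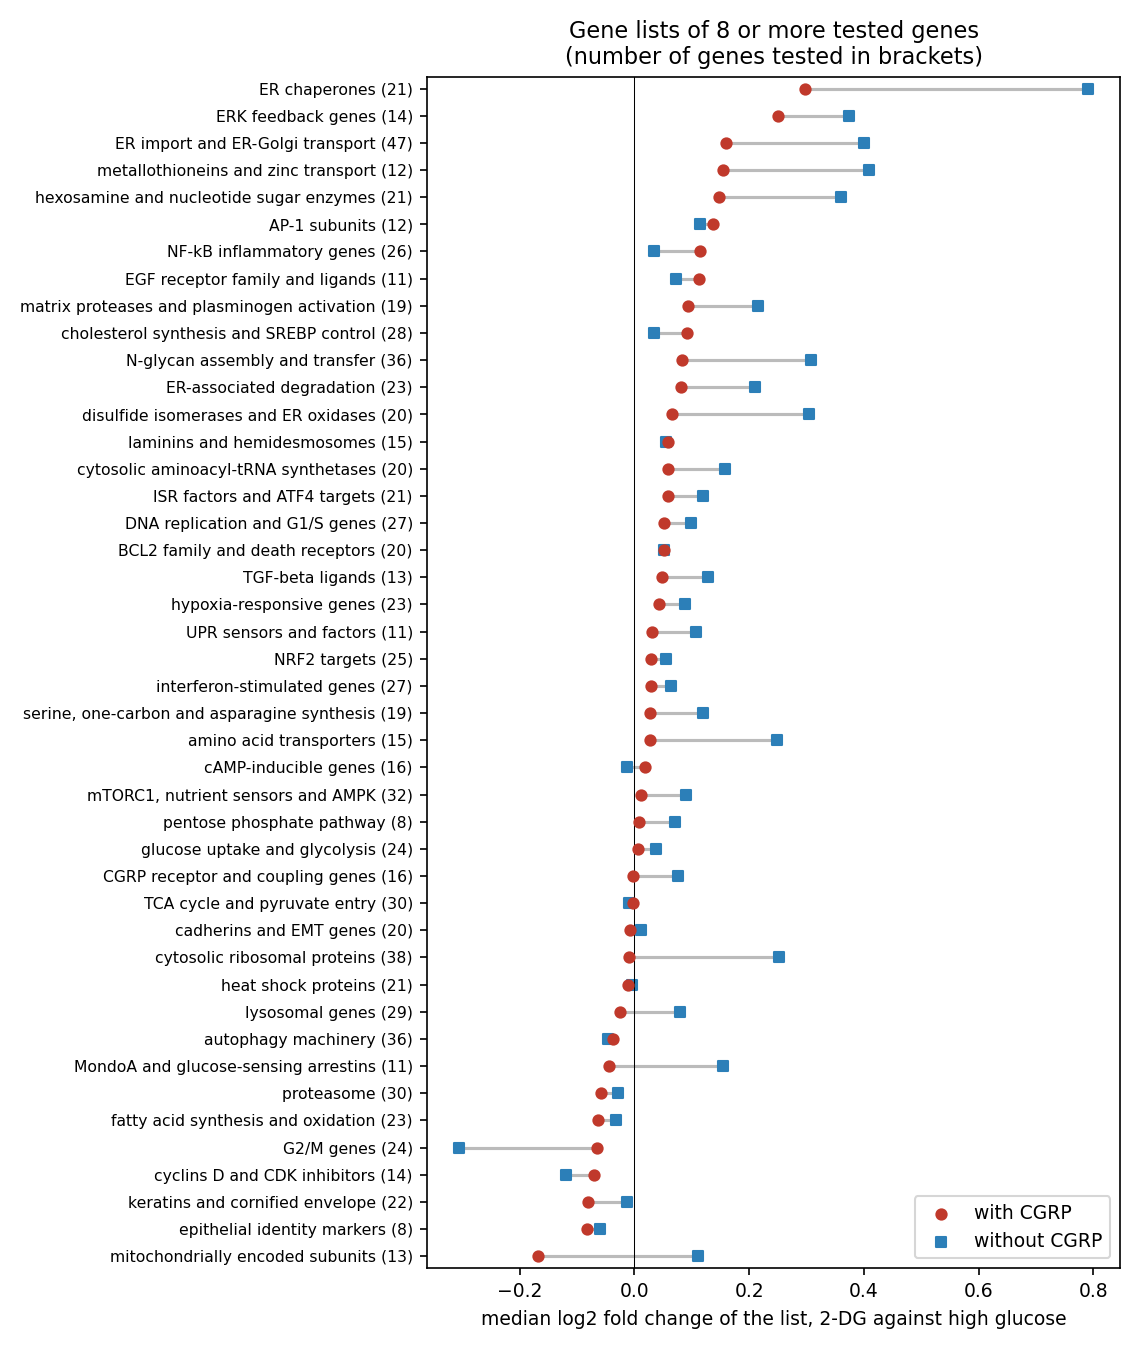
Median log2 fold change of 2-DG against high glucose (horizontal axis) with CGRP (circles) and without CGRP (squares) for the 44 of 49 gene lists with at least 8 tested genes. ER chaperones have the highest median in both comparisons (0.30 with CGRP and 0.79 without), and for 31 of the 44 lists the median is nearer 0 with CGRP.

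Of 21 tested ER chaperones 7 rose with CGRP, and 19 had the smaller absolute change with CGRP. Among all tested genes these shares were 1.52% and 63.5%. HSPA5, the main chaperone of the ER, had 1444, 1373 and 1362 CPM in 2-DG with CGRP, against 988, 1007 and 1013 CPM in high glucose with CGRP. Without CGRP it had 2201, 2437 and 2164 CPM in 2-DG, against 926, 918 and 924 CPM in high glucose. The groups did not overlap in either comparison, and the 2-DG libraries with CGRP lay between the high-glucose and the 2-DG control libraries. The log2 fold change was 0.47 ± 0.07 (SE, adjusted p = 0.0024) with CGRP and 1.30 ± 0.07 (adjusted p = 2.3e-08) without, a difference of -0.82 ± 0.10 (adjusted p = 0.0020). With CGRP 0 of the 21 fell and 14 did not pass, with a median of 0.30, where the median of all genes was 0.0086. Without CGRP 16 rose and 0 fell, with a median of 0.79, where 7.99% of all tested genes rose. With CGRP the risers were HSPA5, its co-chaperones DNAJB9 (0.56 ± 0.06), DNAJC3 (0.36), DNAJC10 (0.33) and DNAJB11 (0.25), the lectin chaperone CANX (0.39) and the exchange factor HYOU1 (0.33). HSP90B1 at 0.40 (adjusted p = 0.051), MANF at 0.41 (0.17) and CALR at 0.24 (0.31) did not pass with CGRP. The 3 libraries of each group did not overlap for any of them, which held for 30.3% of all tested genes with CGRP. The difference between the responses passed for 6 of 21 chaperones, HSPA5, HYOU1, DNAJB11, DNAJB9, DNAJC10 and SERPINH1, all lower with CGRP. It was called lower for 0.27% of all tested genes. In the 6-library fit 13 of the 21 rose and without both libraries that stand apart 15 did, at medians of 0.29.

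HERPUD1, a membrane protein of ER-associated degradation, had 47.5, 46.4 and 46.5 CPM in 2-DG with CGRP, against 27.01, 27.5 and 27.9 CPM in high glucose with CGRP. Its log2 fold change was 0.77 ± 0.06 with CGRP (adjusted p = 6.3e-06) and 1.05 ± 0.06 without. XBP1, the transcription factor that the sensor IRE1 activates by splicing its mRNA, had 96.0, 91.9 and 93.9 CPM in 2-DG with CGRP, against 62.9, 65.6 and 65.6 CPM in high glucose with CGRP (0.54 ± 0.06, adjusted p = 2.9e-04, and 0.95 ± 0.07 without CGRP). The groups did not overlap for either gene, and the difference between the responses did not pass for HERPUD1 (adjusted p = 0.19) or XBP1 (0.071). Of 23 degradation genes 2 rose with CGRP, HERPUD1 and the ubiquitin-conjugating enzyme UBE2J1 (0.19), and 11 without it. Among all tested genes 1.52% rose with CGRP and 7.99% without. Of 11 UPR sensors and factors XBP1 alone rose with CGRP, and the sensor genes ERN1 (0.03), EIF2AK3 (0.33, adjusted p = 0.16) and ATF6 (-0.01) did not pass. PDIA4, a disulfide isomerase, had 620, 617 and 614 CPM in 2-DG with CGRP, against 445, 441 and 442 CPM in high glucose with CGRP (0.48 ± 0.04, adjusted p = 2.2e-05, and 0.91 ± 0.04 without). It and PDIA5 (0.28) were the only risers among 20 disulfide isomerases and ER oxidases with CGRP, where 9 rose without. UBE2J1 lost its call under 10 of 14 alternatives and PDIA5 under 7.

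The promoters of some of these genes, HSPA5, XBP1, HERPUD1 and CANX among them, hold sequence elements through which the UPR is known to act. Those below are shown because HSPA5 and XBP1 hold the same element and HERPUD1 a shorter form, and because the sets of genes that hold each element can be counted. Each stretch runs from 250 bases before to 50 bases after the gene start in RefSeq (GRCh38.p14), 5′ to 3′ on the gene's strand. Capitals mark the ER stress response element (CCAAT and CCACG with 9 bases between them) in HSPA5 (chr9:125241294-125241593, minus strand) and XBP1 (chr22:28800520-28800819, minus strand), and the shorter element II (ATTGG and CCACG with 1 base between them) in HERPUD1 (chr16:56931892-56932191, plus strand).
HSPA5: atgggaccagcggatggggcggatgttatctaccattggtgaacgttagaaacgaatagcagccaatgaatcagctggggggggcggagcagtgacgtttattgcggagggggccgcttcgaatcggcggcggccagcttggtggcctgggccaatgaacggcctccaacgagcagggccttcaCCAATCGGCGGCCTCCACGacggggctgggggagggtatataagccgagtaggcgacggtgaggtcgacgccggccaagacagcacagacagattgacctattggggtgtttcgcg
XBP1: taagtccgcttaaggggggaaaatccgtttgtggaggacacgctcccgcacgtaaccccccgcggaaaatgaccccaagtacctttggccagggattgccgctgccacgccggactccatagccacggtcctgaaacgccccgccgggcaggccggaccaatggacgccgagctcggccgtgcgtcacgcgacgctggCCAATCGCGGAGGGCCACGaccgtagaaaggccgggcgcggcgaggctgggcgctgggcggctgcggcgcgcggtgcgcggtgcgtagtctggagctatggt
HERPUD1: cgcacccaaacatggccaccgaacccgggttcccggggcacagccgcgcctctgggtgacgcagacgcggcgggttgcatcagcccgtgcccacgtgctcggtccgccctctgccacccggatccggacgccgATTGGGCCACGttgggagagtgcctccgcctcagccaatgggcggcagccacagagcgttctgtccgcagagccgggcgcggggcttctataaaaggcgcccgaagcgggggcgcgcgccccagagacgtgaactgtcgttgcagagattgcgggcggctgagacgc
The element in HSPA5 spans bases -66 to -48 and that in XBP1 bases -52 to -34 from the start, and the element II in HERPUD1 spans -117 to -107. In CANX (chr5:179698768-179698806, plus strand) the same element reads on the gene's strand, and in CALR (chr19:12938374-12938412, plus strand) and CRELD2 (chr22:49918544-49918582, plus strand) it reads on the other one, so that its reverse complement is in capitals.
CANX: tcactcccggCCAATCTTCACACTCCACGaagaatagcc
CALR: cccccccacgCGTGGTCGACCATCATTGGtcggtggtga
CRELD2: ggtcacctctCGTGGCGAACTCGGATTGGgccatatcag

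Both strands were searched in 35116 RefSeq promoters, and a gene with several starts counts once. The ER stress response element was in 27 promoters (0.0769%), of 16 tested genes. With CGRP 4 of the 16 rose, HSPA5, XBP1, CANX and the translation factor gene EIF2A (0.29), with a median of 0.23, and 0 fell. Without CGRP 11 rose and 1 fell, with a median of 0.56, and 15 of the 16 had the smaller absolute change with CGRP. Among the 12035 tested genes that have a RefSeq promoter, 1.55% rose with CGRP and 9.16% without. Element II was in 19 promoters (0.0541%), and of its 15 tested genes HERPUD1 and HYOU1 rose with CGRP and 3 rose without. The core of the UPR element that XBP1 binds (TGACGTGG, which can overlap element II as in HYOU1) was in 256 promoters (0.729%), and of 147 tested genes 11 rose and 1 fell with CGRP, against 39 and 2 without. These are matches of letters and not sites shown to be bound.

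Genes that bring proteins into the ER and carry them to the Golgi rose in part. SEC61A1, the pore subunit of the import channel, had 330, 331 and 321 CPM in 2-DG with CGRP, against 262, 260 and 261 CPM in high glucose with CGRP (0.33 ± 0.04, adjusted p = 3.2e-04, and 0.82 ± 0.04 without). KDELR3, a receptor that returns chaperones from the Golgi, had 17.2, 15.1 and 14.2 CPM in 2-DG with CGRP, against 9.25, 9.01 and 8.72 CPM in high glucose with CGRP (0.78 ± 0.09, adjusted p = 1.4e-04, and 1.17 ± 0.09 without). COPG1, a subunit of the COPI vesicle coat, was at 218, 218 and 209 CPM in 2-DG with CGRP, against 167, 169 and 171 CPM in high glucose with CGRP (0.35 ± 0.04, adjusted p = 1.7e-04). Groups did not overlap for any of the 3, which held for 30.3% of all tested genes with CGRP. Of 47 genes of import and ER-Golgi transport 11 rose and 0 fell with CGRP (median 0.16), against 31 and 0 without (median 0.40). The share of rises among all tested genes was 1.52% with CGRP and 7.99% without. All 47 had the smaller absolute change with CGRP, and for 9, among them SEC61A1, SSR1, SSR3, TMED2 and COPG1, the difference between the responses passed. Among all tested genes 63.5% had the smaller absolute change with CGRP, and 0.27% were called lower in the difference. Without both libraries that stand apart 30 rose with CGRP, and in the 6-library fit 27.

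A few genes of sugar transfer and sugar supply rose with CGRP. They were 8.33% of the N-glycan assembly and transfer genes and 14.3% of the hexosamine and nucleotide sugar enzymes. Of all tested genes 1.52% rose. STT3A, a catalytic subunit of the enzyme that attaches N-glycans, had 153, 156 and 158 CPM in 2-DG with CGRP, against 129, 120 and 121 CPM in high glucose with CGRP (0.34 ± 0.05, adjusted p = 0.0017, and 0.70 ± 0.05 without). Its groups did not overlap, and the difference between the responses was -0.37 ± 0.07 (adjusted p = 0.032). Of 36 genes of N-glycan assembly and transfer 3 rose with CGRP, STT3A, STT3B (0.22) and RPN1 (0.24), against 20 without, and medians were 0.08 and 0.31. Among 21 hexosamine and nucleotide sugar enzymes GFPT1, the entry enzyme of the hexosamine pathway (0.35 ± 0.08, adjusted p = 0.022), PGM3 (0.25) and UGDH (0.22) rose with CGRP, against 13 without. STT3B, RPN1, GFPT1, PGM3 and UGDH each lost the call under 5 to 8 of 14 alternatives, most of them with 1 library left out. Over the 6 lists of chaperones, isomerases, degradation, UPR factors, glycan transfer and transport, 26 of 158 tested genes (16.5%) rose and 0 fell with CGRP, and all 26 also rose without it. Without CGRP 89 (56.3%) rose and 0 fell, and for 19 of the 158 the response was smaller with CGRP by the test of the difference, which called 0.27% of all genes lower.

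Of the ATF4 targets 1 of 21 passed with CGRP (4.76%), and of all tested genes 2.39%. TRIB3, a stress-induced pseudokinase, had 29.6, 28.9 and 27.4 CPM in 2-DG with CGRP, against 23.1, 26.0 and 25.8 CPM in high glucose with CGRP (0.20 ± 0.08, adjusted p = 0.26). Its groups did not overlap with CGRP, which held for 30.3% of all tested genes. Without CGRP its log2 fold change was 0.65 ± 0.08 (adjusted p = 5.0e-05). PSAT1, an enzyme of serine synthesis, was at 195, 190 and 190 CPM in 2-DG with CGRP, against 190, 195 and 193 CPM in high glucose with CGRP (-0.01 ± 0.05, adjusted p = 0.98), where 2-DG without CGRP gave 0.31 ± 0.05 (adjusted p = 4.9e-04). DDIT3, which encodes the death-promoting factor CHOP (0.41 ± 0.23), ATF4 (0.07 ± 0.10) and GDF15 (0.05 ± 0.07) did not pass with CGRP. Of 21 ISR factors and ATF4 targets only STC2, a secreted glycoprotein, rose with CGRP (0.38 ± 0.06, adjusted p = 0.0046), and without CGRP 5 rose and 4 fell. Of 15 amino acid transporters 0 passed with CGRP (2 at an unadjusted p under 0.05, 0 by DESeq2) and 4 rose without it. Of 20 aminoacyl-tRNA synthetases 0 passed with CGRP (6 unadjusted, 1 by DESeq2) and 6 rose without it. Among all 18159 tested genes 2621 had an unadjusted p under 0.05 with CGRP and DESeq2 called 710. ASNS had under 1 CPM in each of the 6 libraries and allows no firm statement.

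Genes that sense sugar phosphate through MondoA, a transcription factor that glucose-6-phosphate and 2-DG-6-phosphate are known to activate, rose in part, and for TXNIP the estimates with and without CGRP were close. TXNIP, an arrestin that limits glucose uptake, had 896, 867 and 892 CPM in 2-DG with CGRP, against 755, 672 and 760 CPM in high glucose with CGRP. Without CGRP it had 735, 663 and 716 CPM in 2-DG, against 585, 542 and 595 CPM in high glucose. Groups did not overlap in either pair, and the log2 fold changes were 0.28 ± 0.06 with CGRP (adjusted p = 0.020) and 0.30 ± 0.06 without, a difference of -0.02 ± 0.08 (adjusted p = 0.98). The related arrestin ARRDC4 was at 64.0, 65.3 and 66.7 CPM in 2-DG with CGRP, against 43.3, 42.2 and 45.1 CPM in high glucose with CGRP (0.59 ± 0.06, adjusted p = 8.7e-05, and 0.81 ± 0.06 without). ARRDC3 (0.38) and KLF10 (0.20) also rose, 4 of 11 genes of this list, against 5 rises and 1 fall without CGRP. Among all tested genes 1.52% rose with CGRP and 7.99% without. The list was mixed, with a median of -0.04 with CGRP and 0.155 without. With CGRP 5 of the 11 estimates were above 0 and the lowest was -0.85. While 0 fell by edgeR, 3 were lower at an unadjusted p under 0.05. TXNIP lost its call under 6 of 14 alternatives. A carbohydrate response element (CACGNG in 2 copies with 5 bases between them), the motif that MondoA binds with its partner MLX, is shown in capitals in the TXNIP promoter (chr1:145996530-145996829, minus strand, bases -88 to -72 from the start) and, as its reverse complement, in that of GFPT1 (chr2:69387307-69387343, minus strand).
TXNIP: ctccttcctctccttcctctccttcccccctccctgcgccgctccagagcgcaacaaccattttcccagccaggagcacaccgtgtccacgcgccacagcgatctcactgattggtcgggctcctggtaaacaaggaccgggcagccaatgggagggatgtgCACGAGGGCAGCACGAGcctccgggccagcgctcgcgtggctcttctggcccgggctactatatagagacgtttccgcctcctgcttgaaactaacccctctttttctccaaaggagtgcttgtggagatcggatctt
GFPT1: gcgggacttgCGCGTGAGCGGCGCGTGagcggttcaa
The motif was in 20 of the 35116 promoters (0.057%), and of its 16 tested genes TXNIP and GFPT1 rose with CGRP, against 4 without. Among all tested genes with a RefSeq promoter 1.55% rose with CGRP and 9.16% without. ARRDC4, ARRDC3 and KLF10, the other risers of the MondoA list, were not among the 16.

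Glucose metabolism itself showed no passing gene with CGRP by edgeR. Over all tested genes 2.39% passed, a share at which lists of this size can hold none. An unadjusted p under 0.05 was reached by 2621 of the 18159 genes, and DESeq2 called 710. Of 24 genes of glucose uptake and glycolysis 0 passed by edgeR (1 at an unadjusted p under 0.05, 1 by DESeq2), with a median of 0.0059, and the glucose transporter SLC2A1 (0.08 ± 0.08) and hexokinase HK2 (-0.09 ± 0.15) were among them. Of 8 pentose phosphate genes 0 passed (0 unadjusted, 0 by DESeq2), and of 30 TCA cycle genes 0 passed (3 unadjusted, 2 by DESeq2). MT-ND6, encoded by mitochondrial DNA, fell (-0.37 ± 0.07, adjusted p = 0.010), alone among 13 mitochondrially encoded subunits, whose median was -0.17 with CGRP and 0.11 without. In sterol synthesis SQLE (0.24) and SC5D (0.25) rose, while SREBF1, the SREBP-1 transcription factor, was at 98.4, 101 and 97.9 CPM in 2-DG with CGRP, against 124, 137 and 130 CPM in high glucose with CGRP (-0.40 ± 0.05, adjusted p = 3.2e-04). SC5D did not pass without CGRP, and the difference between the responses did not pass for it (adjusted p = 0.64).

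**Figure D4:**
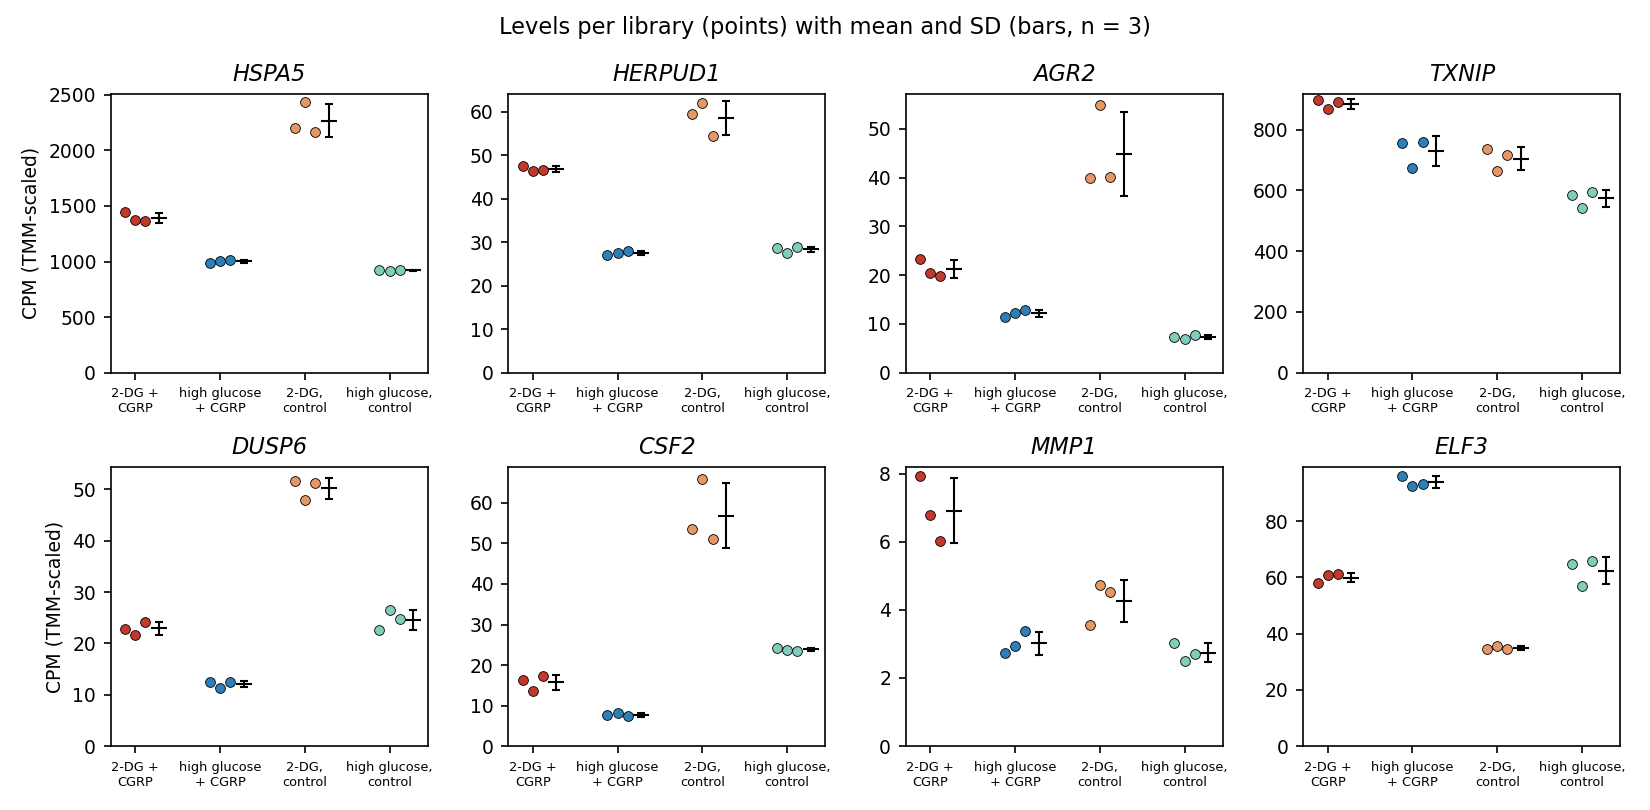
TMM-scaled CPM (vertical axes, from 0) of 8 genes in each library of 2-DG with CGRP, high glucose with CGRP, 2-DG control and high-glucose control, with the mean and SD of 3 libraries beside the points. HSPA5 and AGR2 reach their highest levels in 2-DG control (2164 to 2437 and 39.8 to 54.9 CPM), MMP1 is highest in 2-DG with CGRP (6.02 to 7.92 CPM), and ELF3 is lower in 2-DG than in high glucose in both pairs.

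Several feedback genes of ERK signalling and cytokine genes rose in both media. DUSP6, the phosphatase that switches ERK off, had 22.8, 21.7 and 24.2 CPM in 2-DG with CGRP, against 12.4, 11.4 and 12.5 CPM in high glucose with CGRP. Without CGRP it had 51.6, 47.9 and 51.3 CPM in 2-DG, against 22.5, 26.4 and 24.8 CPM in high glucose. The log2 fold changes were 0.92 ± 0.09 (adjusted p = 3.0e-05) and 1.03 ± 0.08, and their difference was -0.11 ± 0.12 (adjusted p = 0.89). Of 14 ERK feedback genes DUSP6, the transcription factor gene ETV5 (0.44), PHLDA1 (0.29) and DUSP5 (0.28) rose with CGRP, 8 rose without, and 0 fell in either (medians 0.25 and 0.37). The share of rises among all tested genes was 1.52% with CGRP and 7.99% without. CSF2, which encodes the cytokine GM-CSF, had 16.3, 13.6 and 17.2 CPM in 2-DG with CGRP, against 7.59, 8.26 and 7.32 CPM in high glucose with CGRP (1.02 ± 0.11, adjusted p = 8.7e-05). Without CGRP it had 53.5, 65.9 and 51.2 CPM in 2-DG, against 24.3, 23.8 and 23.5 CPM in high glucose (1.25 ± 0.10). Groups of each pair did not overlap for DUSP6 or CSF2. With CGRP this was required of the largest rises named by size, to which both belong. Of 26 NF-kB inflammatory genes CSF2, CSF3 (1.22), LIF (0.37) and IL1A (0.18) rose with CGRP, and 22 did not pass, IL6 among them (0.44 ± 0.13, adjusted p = 0.093). Activated lymphocytes also express CSF2. The lymphocyte transcripts given above were in the same 3 libraries of 2-DG with CGRP, at 181 to 248 counts. The 2-DG libraries without CGRP, where CSF2 also rose, held 0 to 2 of them. The part of lymphocyte RNA in the CSF2 counts was not tested. The AP-1 subunit gene FOSL1 (0.55 ± 0.09, adjusted p = 0.0050), VEGFA, the angiogenic growth factor (0.46 ± 0.10, adjusted p = 0.019), and the EGF family ligand NRG1 (0.25) rose as well, as 1 of 12 AP-1 and 1 of 16 cAMP-inducible genes (FOSL1) and 1 of 11 EGF receptor family genes (NRG1). These are single genes, and the other members of those 3 lists did not pass with CGRP, where 1.52% of all tested genes rose. VEGFA and NRG1 each lost the call under 7 of 14 alternatives.

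MMP1, interstitial collagenase, had 7.92, 6.79 and 6.02 CPM in 2-DG with CGRP, against 2.73, 2.94 and 3.37 CPM in high glucose with CGRP. Groups without overlap were a condition for the rises named by size. Its log2 fold change of 1.20 ± 0.13 (adjusted p = 1.6e-04) was the largest of the 10 rises named by size among genes with an average log2 CPM of 1 or more, and without CGRP it was 0.63 ± 0.14 (difference 0.56 ± 0.20, adjusted p = 0.35). SERPINE2 (0.40) and ADAMTS1 (0.48) were the other risers among 19 matrix protease and plasminogen genes, against 9 rises and 1 fall without CGRP. Of 24 G2/M genes 0 passed with CGRP by edgeR (4 at an unadjusted p under 0.05, all lower, and 0 by DESeq2), while 13 fell without it, at medians of -0.07 and -0.31. Over all tested genes 0.87% fell with CGRP and 5.85% without, and 1.52% and 7.99% rose. KIF20A, a kinesin of cell division, had 138, 142 and 137 CPM in 2-DG with CGRP, against 145, 149 and 149 CPM in high glucose with CGRP (-0.09 ± 0.05, adjusted p = 0.50). Without CGRP it had 94.2, 94.0 and 96.8 CPM in 2-DG, against 141, 146 and 142 CPM in high glucose (-0.59 ± 0.05), and the difference of 0.50 ± 0.07 passed (adjusted p = 0.0061), as it did for KIF23 and TPX2. Without both libraries that stand apart 12 of the 24 fell with CGRP, at a median of -0.08, and in the 6-library fit 8 did. CCND1, which encodes cyclin D1 (0.27), rose with CGRP, and the CDK inhibitor genes CDKN2D (-0.43) and CDKN1A (-0.20) fell.

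Among genes with an average log2 CPM of 1 or more, an official symbol and groups that did not overlap, the largest rises after MMP1 were the pseudogene NPM1P27 (1.09 ± 0.12), CSF2, the T-cell receptor segment TRAV8-1 (0.99 ± 0.09), DUSP6, the pentraxin PTX3 (0.87 ± 0.12), the zinc finger gene ZNF114 (0.86 ± 0.07), the pseudogene RPL13AP25 (0.84), the transposon-derived pseudogene ZBED10P (0.83 ± 0.07) and SHH, the ligand of hedgehog signalling (0.81 ± 0.19). ZNF114 had 59.9, 56.3 and 57.5 CPM in 2-DG with CGRP, against 30.6, 32.1 and 33.1 CPM in high glucose with CGRP (adjusted p = 2.2e-05). TRAV8-1 had 27.9, 27.3 and 30.9 CPM in 2-DG with CGRP, against 14.4, 13.0 and 16.0 CPM in high glucose with CGRP (adjusted p = 2.2e-05), and it was also at 16.4 to 23.9 CPM without CGRP, where the lymphocyte genes were near 0. SHH and RPL13AP25 lost the call under 7 and 6 of 14 alternatives. MMP1, NPM1P27 and ZBED10P lie within or over other genes in the annotation, and with no strand setting known their reads cannot be told from those of the neighbours.

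NPM1P27 was among 12 processed pseudogenes that rose with CGRP, of 623 tested (1.93%), and 0 fell. That share of rises was near the 1.84% of protein-coding genes and the 1.52% of all genes tested. It had 27.8, 30.5 and 29.2 CPM in 2-DG with CGRP, against 13.5, 14.1 and 13.6 CPM in high glucose with CGRP, and 13.6 to 18.5 CPM in 2-DG without CGRP. The difference between the responses was 0.98 ± 0.17 (adjusted p = 0.020). The parent gene NPM1 was at 0.10 ± 0.10 (adjusted p = 0.75), and RPL13A, SRP9, HMGN2 and RAC1, parents of other risers, did not pass either, whereas BZW1 rose (0.22, adjusted p = 0.019). Reads of a pseudogene and its parent can be exchanged in counting, so these values are uncertain.

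The 10 largest falls, under the limits used for the rises, included ELF3, PADI3 and PIGR. ELF3, an epithelial transcription factor, had 58.0, 60.7 and 61.1 CPM in 2-DG with CGRP, against 96.1, 92.3 and 93.1 CPM in high glucose with CGRP (-0.65 ± 0.06, adjusted p = 2.2e-05, and -0.84 ± 0.06 without). PADI3, an enzyme that citrullinates proteins of hair and skin, had 92.8, 90.6 and 91.4 CPM in 2-DG with CGRP, against 138, 146 and 142 CPM in high glucose with CGRP (-0.63 ± 0.07, adjusted p = 8.7e-05). PIGR, the receptor that carries antibodies across epithelium, had 10.1, 8.40 and 10.2 CPM in 2-DG with CGRP, against 15.03, 15.4 and 16.0 CPM in high glucose with CGRP (-0.69 ± 0.14, adjusted p = 0.017). The groups did not overlap for any of these, which the choice of the 10 falls required. TDRKH (-0.63 ± 0.06), PIK3IP1, an inhibitor of PI3 kinase (-0.65 ± 0.10), the mucin gene MUC20 (-0.70 ± 0.17), HYKK (-0.63 ± 0.14) and the noncoding MARCHF6-DT (-0.74 ± 0.18), NARF-AS2 (-0.71 ± 0.18) and IRF2-DT (-0.64 ± 0.10) complete these 10 falls. PIGR, MUC20, HYKK, MARCHF6-DT and NARF-AS2 each lost the call when 5 or 6 of the 6 libraries were left out in turn. The death factor gene BMF (-0.41) and the autophagy genes ULK1 (-0.24) and GABARAPL1 (-0.31) fell, the last at an adjusted p of 0.0033. Of 22 keratin and cornified envelope genes and 20 cadherin and EMT genes 0 passed with CGRP, where 1 and 5 had an unadjusted p under 0.05 and DESeq2 called 0 and 3. Among all 18159 tested genes these last counts were 2621 unadjusted and 710 by DESeq2. Over all tested genes 2.39% passed by edgeR.

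Single genes passed in other lists, and over all tested genes 2.39% passed. GCLM, a subunit of the enzyme that starts glutathione synthesis, had 87.3, 88.5 and 88.1 CPM in 2-DG with CGRP, against 67.8, 67.8 and 70.7 CPM in high glucose with CGRP (0.36 ± 0.07, adjusted p = 0.0088). GSR, which reduces oxidised glutathione, had 144, 145 and 144 CPM in 2-DG with CGRP, against 169, 173 and 175 CPM in high glucose with CGRP (-0.26 ± 0.04, adjusted p = 0.0023). These 2 of 25 NRF2 targets went opposite ways, and the groups did not overlap for either. CASTOR2, of the family of arginine sensors of mTORC1, fell (-0.45 ± 0.08) as the only passing gene of 32 nutrient sensors. The death receptor FAS (0.25) and the decoy receptor TNFRSF10D (0.32) rose among 20 BCL2 family and death receptor genes, and IFIT2 (0.28) and OASL (0.35) among 27 interferon-stimulated genes. The zinc transporters SLC30A1 (0.38) and SLC39A6 (0.18) rose among 12 zinc genes, 6 of which rose without CGRP. In amino acid synthesis ALDH18A1, the first enzyme of proline synthesis (0.20), and GPT2, an alanine transaminase (0.19), rose of 19 genes, against 7 rises and 2 falls without CGRP. P4HA2, a collagen prolyl hydroxylase (0.27), and VEGFA were the risers among 23 hypoxia genes. SQSTM1, the autophagy receptor p62 (0.21 ± 0.07, adjusted p = 0.13), and MKI67, which encodes the proliferation marker Ki-67 (0.01 ± 0.22, adjusted p = 0.99), did not pass. GPT2 and SLC39A6 lost the call under 10 of 14 alternatives, ALDH18A1 and TNFRSF10D under 8, P4HA2 under 7, and FAS under 6. Of the genes named above CCND1 and IL1A lost it under 8, ADAMTS1 under 7, BMF, CDKN1A and ULK1 under 6, and SC5D under 5.

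With CGRP 2.39% of all tested genes passed by edgeR. It called 0 among 23 fatty acid, 29 lysosomal, 21 heat shock, 15 laminin, 38 ribosomal protein, 30 proteasome and 13 TGF-beta ligand genes. At an unadjusted p under 0.05 there were 4, 5, 7, 1, 0, 1 and 1 of them in the same order, and DESeq2 called 0, 1, 6, 0, 0, 1 and 0. Among all 18159 tested genes these counts were 2621 and 710. The heat shock genes called by DESeq2 were 2 rises and 4 falls, so this list was not without change by that test. The median of the ribosomal protein genes was -0.01 with CGRP and 0.25 without, where 0 passed as well.

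The difference between the 2-DG responses with and without CGRP passed for 71 of 18159 genes (0.391%), 22 higher and 49 lower with CGRP. In a fit without both libraries that stand apart it passed for 1088 genes, 432 higher and 656 lower, and in a fit of the 12 libraries compared for 148. With each of the 12 libraries compared left out in turn the count was 13 to 53, and 2-DG control 2 gave the 53. AGR2, an ER protein of mucus-making cells that helps fold secreted proteins, had 23.3, 20.5 and 19.8 CPM in 2-DG with CGRP, against 11.4, 12.3 and 12.8 CPM in high glucose with CGRP. Without CGRP it had 39.8, 54.9 and 40.05 CPM in 2-DG, against 7.31, 6.89 and 7.67 CPM in high glucose. Its log2 fold change was 0.80 ± 0.16 with CGRP and 2.62 ± 0.17 without, a difference of -1.82 ± 0.23 (adjusted p = 0.0023). LAMB3, a chain of laminin-332, had 833, 821 and 788 CPM in 2-DG with CGRP, against 772, 728 and 737 CPM in high glucose with CGRP (0.13 ± 0.05, adjusted p = 0.25), and 0.86 ± 0.05 without CGRP (difference -0.73 ± 0.07, adjusted p = 2.7e-04). CTHRC1, a secreted collagen-modifying protein (-0.81 ± 0.16), and NUCB2, a calcium-binding secretory protein (-0.71 ± 0.11), complete the 5 lowest differences ranked. Ranked were passing genes with an average log2 CPM of 1 or more and an official symbol. The highest ranked after NPM1P27 were HCG27 (0.85 ± 0.17), the kinase gene TEC (0.78 ± 0.15), TRAV8-1 (0.61 ± 0.13) and CCNG2, which encodes cyclin G2 (0.56 ± 0.10). The pseudogene SRP9P1, outside this ranking at 0.62 to 2.14 CPM in these 12 libraries, had a passing difference of 1.58 (adjusted p = 0.022). CCNG2 had 40.2, 43.3 and 38.5 CPM in 2-DG with CGRP, against 41.3, 44.4 and 39.6 CPM in high glucose with CGRP, which overlapped, whereas without CGRP it fell (-0.60 ± 0.07). HCG27, TEC, TRAV8-1 and CTHRC1 lost the call in 11 to 14 of 20 alternatives.

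Receptor genes for CGRP did not pass in the 2-DG comparison. CALCRL had 6.46, 6.63 and 5.56 CPM in 2-DG with CGRP, against 6.49, 4.41 and 5.82 CPM in high glucose with CGRP (0.16 ± 0.18, adjusted p = 0.80), and RAMP1 had 22.5, 19.8 and 22.2 CPM in 2-DG with CGRP, against 19.5, 21.0 and 19.9 CPM in high glucose with CGRP (0.10 ± 0.17, adjusted p = 0.90). Both overlapped between the groups. Of 16 tested receptor and coupling genes 0 passed with CGRP by edgeR or by DESeq2, and 1 had an unadjusted p under 0.05. Over all tested genes 2.39% passed by edgeR.

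2-DG with CGRP differed from glucose deprivation with CGRP in most tested genes. The test of 2-DG against deprivation with CGRP called 10925 genes (60.2%), 5209 higher (28.7%) and 5716 lower (31.5%) in 2-DG, and deprivation against high glucose with CGRP called 60.4%, 31.9% higher and 28.5% lower. HSPA5 was at 1362 to 1444 CPM in 2-DG with CGRP and at 18252, 22050 and 18448 CPM in deprived medium with CGRP, a log2 difference of -3.81 ± 0.08. TXNIP was at 867 to 896 CPM in 2-DG with CGRP and at 10.4, 10.4 and 11.1 CPM in deprived medium with CGRP (6.38 ± 0.08), the largest rise named. METTL7A, CP, CLCA2 and STC1 were the next largest (5.98 to 4.93), and RAB39B, CMKLR2, INHBE, FLRT1 and SCN9A the largest falls (-7.79 to -5.41). Both rankings took passing genes with an average log2 CPM of 1 or more and an official symbol. Of the 21 ER chaperones 19 were lower and 1 higher in 2-DG than in deprived medium, and all 24 G2/M genes were higher. The share of counts taken by HSPA5 was 0.141% to 0.148% in 2-DG with CGRP, and 1.78% to 2.00% in deprived medium with CGRP. Deprivation and 2-DG share the high-glucose CGRP libraries as their baseline, and against it the median of the ER chaperones was 0.30 with 2-DG and 1.80 with deprivation.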

How the data were processed

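RNA was sequenced from 18 Cal27 libraries in 6 groups of 3, and the values are raw read counts per gene as the authors deposited them. Reads were aligned with HISAT2 2.0.4, per the submitters' processing notes, which name both hg19 and GRCh38; the sources used here name neither a counting tool nor a strand setting, and no coordinates are given for counted genes. Libraries held 28038260 to 32661768 counts. Of 60683 gene IDs 60370 matched a name. Genes were kept by filterByExpr (minimum count 10, minimum total 15), which left 18159 (29.9%).

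Counts were scaled by TMM and tested with edgeR 4.0.16 (R 4.3.3, limma 3.58.1), by the robust quasi-likelihood F test over all 18 libraries with a mean per group (12 residual degrees of freedom, common biological coefficient of variation 9.44%), with Benjamini-Hochberg adjustment across the 18159 genes and a threshold of 0.05. The comparisons were 2-DG against high glucose with CGRP, the same without CGRP, the difference of these responses, and 2-DG against deprivation with CGRP. In simulated data 200 of 18159 genes were changed, all drawn from those with an average log2 CPM of 1 or more. The first comparison recovered 98% of 2-fold rises, 88% of 2-fold falls, and 70% and 68% of 1.5-fold rises and falls. Of 166 calls 4 (2.41%) were unchanged genes. No simulated library was made to stand apart, so these shares do not cover genes of low level or the effect of such libraries. The p-values measure the spread between libraries of a group, pooled over all 6 groups with 2-DG control 2 and deprived CGRP 2 included. The chi-square per degree of freedom between replicate pairs was 1.43 to 1.9 in high-glucose controls. It was 1.68 to 3.99 in high glucose with CGRP and 2.59 to 5.61 in 2-DG with CGRP. Pairs with 2-DG control 2 gave 36 and 46, and pairs with deprived CGRP 2 gave 87 and 90.1.

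Genes named in the text are the 10 largest rises and falls that passed, had groups without overlap, an official symbol and a mean log2 CPM not below 1, up to 3 passing genes per list and direction, 21 fixed genes, and the 5 largest each way in the other comparisons. These last had the same limits except that on overlap. Other genes named were chosen after their values were seen, among them the 40 lymphocyte genes, the pseudogenes with their parents and the promoters shown. The members and lists were chosen with earlier results of these data known. Alternatives were other scalings (RLE, total counts), other filters, fits of the compared groups alone, without the 2 libraries that stand apart, with a replicate block, DESeq2 1.42.0, and each replicate left out. Same-numbered libraries of 2-DG and high glucose with CGRP did not deviate together (correlations -0.07, -0.02 and 0.01), so the numbers were not used to pair them. Results for some genes are not reported here.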

Additional observations from a re-analysis of the deposited data

Results flagged for a closer look

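For 16 named genes the 2-DG response differed with and without CGRP by edgeR's test of the difference, which called 0.391% of all genes. Below the response without CGRP, on the log2 scale, were the responses of AGR2 (-1.82), HSPA5 (-0.82), CTHRC1 (-0.81), LAMB3 (-0.73), NUCB2 (-0.71), SEC61A1 (-0.49), DNAJB9 (-0.48), DNAJC10 (-0.47), PDIA4 (-0.43), STT3A (-0.37) and COPG1 (-0.28). Above it were those of NPM1P27 (0.98), HCG27 (0.85), TEC (0.78), TRAV8-1 (0.61) and CCNG2 (0.56). AGR2, HSPA5, LAMB3, PDIA4 and SEC61A1 kept the call under all 20 alternatives, and the other 11 lost it under 4 to 15 of them.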

How the results depend on the processing

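The count of genes called for 2-DG against high glucose with CGRP was 434, and 246 with no low-count filter, 2336 from the compared groups alone, 3597 without both libraries that stand apart, 710 by DESeq2, and 162 to 192 with 1 compared library left out. Without CGRP it was 2513, and 1499, 6002 and 1607 to 2098 from the compared groups alone, without both libraries and with 1 library left out (1607 and 1643 without high-glucose control 3 and 1). For the difference between the responses it was 71, and 30 with no filter, 148, 1088, 228 by DESeq2, and 13 to 53. The cause of these shifts was not tested, beyond what fewer libraries or more genes tested imply. For 2-DG against deprivation with CGRP every setting gave 8541 to 12651 calls, of 10925.

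With the replicate number as a block the counts were 404, 2573, 68 and 11043 for these 4 comparisons, and the numbers do not pair the libraries. Total-count scaling changed the share of rises to 51.1%, against 63.6%, with CGRP, to 38.1%, against 57.7%, without CGRP, and to 44.4%, against 31%, in the difference. No named gene that passed in a comparison changed sign there under any alternative, while MKI67 and PSAT1, near 0 with CGRP and not passing, did, MKI67 under total-count scaling among others. Of 75 named genes that passed with CGRP 34 passed under every alternative run and 41 lost the call at least once, 27 of them with all compared libraries kept. Depth limits the genes with few counts most: the lymphocyte transcripts rest on at most 47 counts a gene and library among the genes named.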
